A study of Homo sapiens with 12 samples.

Results

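The alpha-globin cluster genes read here are HBZ, HBA1, HBA2 and HBQ1, which lie close together near the tip of the short arm of chromosome 16. They were taken by symbol from the deposited count table, which holds 28278 genes, and all 4 were among the 15805 genes with enough counts to be tested. Alpha-like globin chains pair with beta-like chains, made from a separate cluster on chromosome 11, to form hemoglobin. HBZ encodes zeta globin, the embryonic alpha-like chain, while HBA2 and HBA1 are near-identical copies that encode the alpha chain of fetal and adult hemoglobin. HBQ1 encodes theta globin, an alpha-like chain with no settled role in hemoglobin. In human development zeta is the early chain and is replaced by alpha, and distal enhancers within the neighbouring gene NPRL3 drive the cluster in erythroid cells.

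RNA sequencing was carried out on K562, an established human erythroleukaemia line that makes embryonic and fetal globins. Cells were wild type (WT) or HRG1-KO (KO), in which SLC48A1, the gene for the heme transporter HRG1, was knocked out, and each genotype was either untreated or given sodium butyrate, a histone deacetylase inhibitor. Butyrate was used at 0.75 mM, first 24 h after plating and again 48 h later, harvest followed 6 h after that, and the series places them at day 8 of differentiation. The 4 groups (WT untreated, WT butyrate, KO untreated and KO butyrate) held 3 libraries each. The labels do not say whether replicates were separate cultures or how many KO clones were used, so p-values measure the spread between these libraries and a clone cannot be told apart from the knockout.

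Library totals were 19963594 to 30348538 counts. SLC48A1 held 1357 to 1945 counts in the 6 WT libraries and 55 to 313 in the 6 KO libraries, and was 12.4-fold lower in untreated KO (edgeR adjusted p 1.82e-05) and 8.43-fold lower in treated KO (adjusted p 7.41e-05). Of 10 erythroid marker genes none was at 0 throughout a group, and their summed level was 1036 to 3493 CPM (counts scaled by TMM to a common library size). Megakaryocyte markers summed to 15.6 to 227 CPM with GP1BB and PF4 at 0 in all 4 groups, myeloid markers to 18.3 to 141 CPM with MPO at 0 in KO, and lymphoid markers to 4.07 to 24.5 CPM with MS4A1 and NCAM1 at 0 in all groups. Not all were low, as the megakaryocyte marker ITGA2B reached 208 CPM in treated WT. TFRC alone held 376 to 2273 CPM of the erythroid sum, while EPB42 held 0 to 8 counts in untreated KO. After butyrate 3 of 10 tested erythroid, 1 of 5 megakaryocyte, 0 of 6 myeloid and 0 of 4 lymphoid markers rose in WT (edgeR adjusted p under 0.05). In KO 1, 2, 2 and 1 rose, and 0 fell in either genotype. Of all tested genes 2.35% and 3.40% passed. The library numbered 1 had the highest share of counts on the ribosomal RNA gene RNA28SN5 in every group. This share was 2.30% to 5.63%, against 0.673% to 2.86% in the other libraries. Where a main result rests on that library, values without it or values of each library are given.

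In the GENCODE v29 annotation of GRCh38 all 4 genes are on the plus strand of chromosome 16, each with 3 exons and a coding length of 426 bases. HBZ (ENSG00000130656.4) spans 152687 to 154503, HBA2 (ENSG00000188536.13) 172876 to 173710, HBA1 (ENSG00000206172.8) 176680 to 177522 and HBQ1 (ENSG00000086506.2) 180453 to 181181. The order of these 4 from the enhancer side is therefore zeta, alpha 2, alpha 1 and theta. The mu globin gene HBM and the pseudogene HBZP1 lie between the HBZ start and HBA2. Of the 478 windows of 100 bases in the HBA1 transcript, 381 (79.7%) also occur in HBA2, while none of those in HBZ or HBQ1 occurs in HBA1. How reads shared by HBA1 and HBA2 were counted is not given in the sources used here, so their separate values are uncertain and their sum is the firmer measure of alpha mRNA.

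Alpha mRNA rose after butyrate in WT cells in the main fit, which takes no pairs and in which neither zeta nor theta passed. With libraries of the same number taken as pairs zeta passed as well, so the test does not set alpha apart from zeta. HBA1 and HBA2 together held 33851, 13741 and 35189 counts in the untreated WT libraries numbered 1, 2 and 3, or 1833, 638 and 1183 CPM. In treated WT they held 287313, 134310 and 81549 counts, or 14894, 5732 and 2592 CPM. Every treated library was above every untreated one, and the treated libraries differed 5.75-fold among themselves. The sum rose by 2.67 on the log2 scale (SE 0.57, 6.35-fold, edgeR quasi-likelihood test, adjusted p 0.0328), with HBA1 rising by 2.61 (SE 0.56, adjusted p 0.0327) and HBA2 by 2.73 (SE 0.57, adjusted p 0.0321).

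The call on the alpha sum was kept in 2 of the 6 edgeR fits that left out 1 library, among them the fit without the highest library, WT butyrate replicate 1, where the rise was 1.76 (adjusted p 0.0315). It was lost without untreated WT replicate 1, 2 or 3 (edgeR adjusted p 0.0784, 0.143 and 0.0978) and without treated WT replicate 2 (0.0763), although the direction was the same in all 6. In bulk RNA, more cells expressing a globin and more globin mRNA per cell cannot be told apart.

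HBZ held 8920, 4333 and 7328 counts in untreated WT, or 483, 201 and 246 CPM. In treated WT it held 145693, 29435 and 10750 counts, or 7553, 1256 and 342 CPM. The treated libraries spanned 22.1-fold, and the lowest of them lay below untreated replicate 1, so the groups overlapped. Within the same replicate number HBZ was higher after butyrate by 15.6-fold, 6.25-fold and 1.39-fold. The difference was 3.30 in log2 units (SE 0.89, edgeR adjusted p 0.0761), and it passed with the replicate number as a block (2.61, edgeR adjusted p 0.0136). Without treated replicate 1 it was 1.35 (edgeR adjusted p 0.162), and without treated replicate 3 it was 3.83 (adjusted p 0.0321).

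HBQ1 held 557, 520 and 731 counts in untreated WT (30.2, 24.1 and 24.6 CPM) and 474, 754 and 803 in treated WT (24.6, 32.2 and 25.5 CPM). The groups overlapped, and the difference was 0.06 on the log2 scale, with an approximate 95% interval of -0.51 to 0.63 (edgeR adjusted p 0.948). In WT, 2 of the 4 genes passed the threshold, where 2.35% of all tested genes did, and 3 of 4 passed with the replicate block, where 8.61% of all genes did. Groups did not overlap for HBA1 and HBA2, against 21.7% of all tested genes. The median log2 change of the 4 genes was 2.67, and that of all tested genes was 0.02. The near-identical HBA1 and HBA2 (r = 1.00 over the 12 libraries) are in effect 1 measurement. It counts 2 times in this and every later tally or median of the 4 genes.

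**Figure D1:**
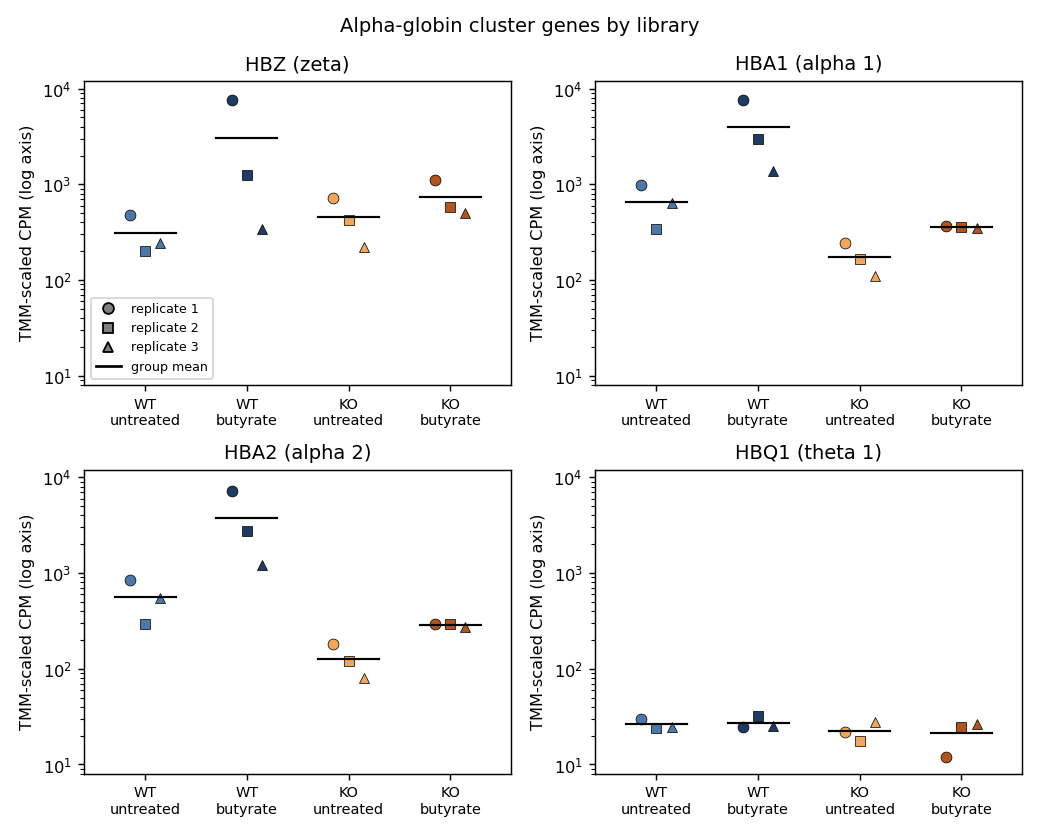
Level of each alpha-globin cluster gene in every library, in TMM-scaled CPM on a log axis, with 3 libraries per group (symbol gives the replicate number) and the group mean as a bar. HBA1 and HBA2 are highest in treated WT and lowest in untreated KO without overlap between them, HBZ of treated WT spans 342 to 7553 CPM, and HBQ1 stays between 12.1 and 32.2 CPM in all 12 libraries.

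In KO cells the same genes were followed after butyrate. HBA1 and HBA2 together held 7901, 6038 and 5645 counts in untreated KO, or 423, 287 and 189 CPM, and 14384, 19695 and 19355 counts in treated KO, or 661, 651 and 624 CPM. Every treated library was above every untreated one, and the treated libraries lay within 1.06-fold of each other. The difference of the sum was 1.11 on the log2 scale (SE 0.54, 2.15-fold, edgeR unadjusted p 0.0621, adjusted p 0.282). Its approximate 95% interval, 0.05 to 2.17, left out 0 only because it is narrower than the edgeR test implies. The difference was 1.06 for HBA1 (edgeR adjusted p 0.296) and 1.17 for HBA2 (adjusted p 0.261). With the replicate block HBA2 passed at 1.30 (edgeR adjusted p 0.0488), and the sum did not at 1.23 (adjusted p 0.0571). Without the libraries numbered 1 the sum passed at 1.41 (edgeR adjusted p 0.0499).

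HBZ held 13387, 8936 and 6672 counts in untreated KO, or 716, 425 and 223 CPM. In treated KO it held 24132, 17604 and 15470 counts, or 1108, 582 and 499 CPM. Each treated library was above the untreated one of the same number, by 1.55-fold, 1.37-fold and 2.23-fold, but the groups overlapped, with a difference of 0.68 in log2 units (SE 0.82, edgeR adjusted p 0.699). HBQ1 held 409, 373 and 838 counts in untreated KO (21.9, 17.7 and 28.0 CPM) and 263, 743 and 830 in treated KO (12.1, 24.5 and 26.7 CPM). Its difference was -0.09 on the log2 scale (approximate 95% interval -0.67 to 0.48, edgeR adjusted p 0.903). That sign turned when libraries were scaled by their size alone (0.04) or when the libraries numbered 1 were left out (0.14).

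In KO 0 of the 4 genes passed edgeR's test after butyrate, where 3.40% of all tested genes did, and the unadjusted p was 0.421 for HBZ, 0.0678 for HBA1, 0.0531 for HBA2 and 0.755 for HBQ1. DESeq2 also called 0 of 4, where it called 1158 of all 15805 tested genes higher and 380 lower. With the replicate block 1 of 4 passed, where 11.7% of all genes did. The groups did not overlap for HBA1 and HBA2, against 24.4% of all tested genes. The median log2 change of the 4 genes was 0.87, and that of all genes was 0.00.

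The butyrate responses of the genotypes were compared directly by the interaction, the log2 change in KO minus that in WT. It was -2.62 for HBZ (SE 1.17, unadjusted p 0.0446 in edgeR), -1.56 for the alpha sum (SE 0.76, unadjusted p 0.0613) and -0.15 for HBQ1 (SE 0.41, unadjusted p 0.715). None of the 4 genes passed after adjustment (edgeR adjusted p 1.00 each). The share of all tested genes that passed was also 0%, and 658 of them had an unadjusted p under 0.05. DESeq2 called 86 genes but none of these 4. Without treated WT replicate 1 the interaction of HBZ was -0.65 and that of the alpha sum was -0.64.

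In untreated cells alpha mRNA was lower in KO than in WT, while zeta and theta mRNA did not pass the test. The alpha sum was 1218 ± 599 CPM in untreated WT and 300 ± 118 CPM in untreated KO (SD, n = 3), and no KO library reached a WT library. The sum fell by 2.02 on the log2 scale (SE 0.55, 4.07-fold lower, edgeR adjusted p 0.0196), HBA1 fell by 1.92 (SE 0.54, adjusted p 0.0225) and HBA2 fell by 2.15 (SE 0.56, adjusted p 0.0155). The call on the sum was kept in 3 of the 6 edgeR fits that left out 1 library. It was lost without untreated WT replicate 1 (-1.60, edgeR adjusted p 0.0780), untreated KO replicate 2 (adjusted p 0.0631) or untreated KO replicate 3 (adjusted p 0.0686).

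HBZ was 310 ± 151 CPM in untreated WT and 455 ± 248 CPM in untreated KO (SD, n = 3), and the groups overlapped. Its difference was 0.55 on the log2 scale, with an approximate 95% interval of -1.05 to 2.16 (edgeR adjusted p 0.686). HBQ1 was 26.3 ± 3.36 CPM in WT and 22.5 ± 5.17 CPM in KO (SD, n = 3), a difference of -0.22 (approximate 95% interval -0.79 to 0.35, edgeR adjusted p 0.648). Of the 4 genes 2 passed, where 22.6% of all tested genes did, and with the replicate block 2 of 4 passed, where 33.0% did. The same 2 genes did not overlap between genotypes, against 42.3% of all tested genes, and the median log2 change was -1.07 against 0.02 over all genes.

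In treated cells alpha mRNA was again lower in KO. The alpha sum was 7739 ± 6392 CPM in treated WT, or 4162 CPM without replicate 1, and 645 ± 19.1 CPM in treated KO (SD, n = 3), with no overlap. It fell by 3.58 in log2 units (SE 0.59, edgeR adjusted p 0.00119), HBA1 fell by 3.48 (SE 0.58, adjusted p 0.00123) and HBA2 fell by 3.71 (SE 0.60, adjusted p 0.00104). The call on the sum was kept in 6 of 6 edgeR fits that left out 1 library, with a value nearest to 0 of -2.70 and a highest adjusted p of 0.00725. Treated KO libraries, at 624 to 661 CPM, lay at about the level of the lowest untreated WT library, at 638 CPM.

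HBZ was 3050 ± 3926 CPM in treated WT, or 799 CPM without replicate 1, and 730 ± 331 CPM in treated KO (SD, n = 3). The difference of -2.06 in log2 units (SE 0.85, edgeR adjusted p 0.113) became -0.14 (adjusted p 0.889) without treated WT replicate 1 and -2.61 (adjusted p 0.0240) without treated WT replicate 3. HBQ1 was 27.4 ± 4.14 CPM in WT and 21.1 ± 7.91 CPM in KO (SD, n = 3), a difference of -0.38 (approximate 95% interval -0.95 to 0.20, edgeR adjusted p 0.427). Of the 4 genes 2 passed, where 19.0% of all tested genes did, and with the replicate block 2 of 4 passed, where 29.2% did. HBA1 and HBA2 did not overlap between genotypes, against 33.9% of all tested genes, and the median log2 change was -2.77 against 0.00 over all genes. The 4 comparisons share groups in pairs, so their values are not independent of each other.

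**Figure D2:**
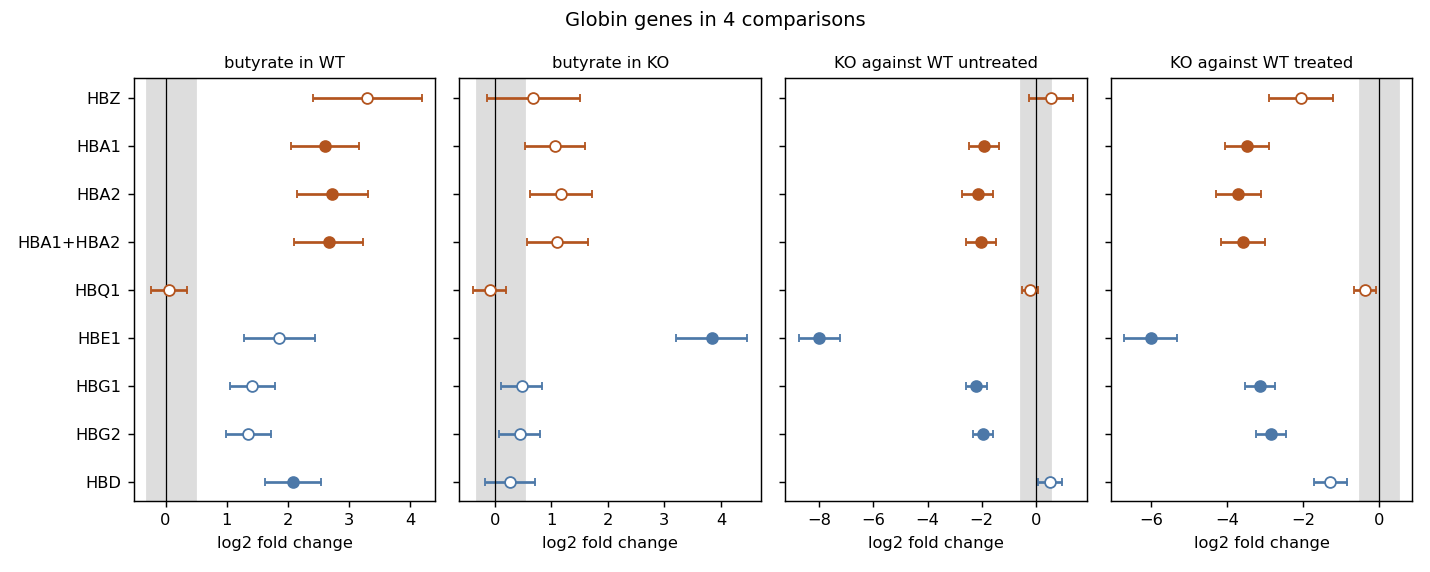
Log2 fold change of the alpha-globin cluster genes (orange) and of the beta-cluster globins (blue) in 4 comparisons, with bars of 1 SE, filled where the edgeR adjusted p was under 0.05 and open elsewhere, the grey band marking the 25th to 75th percentile of all tested genes, and x axes that differ between panels. The alpha sum falls by 2.02 and 3.58 in KO, HBZ passes in none of the 4 panels, and HBQ1 lies inside the band in each. The fit shown takes no replicate pairs, and with pairs HBZ passed after butyrate in WT.

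Levels of different genes were set side by side per kilobase of exon. In untreated WT the order of mean level was HBA1 (1135 CPM per kb), HBA2 (978), HBZ (411) and HBQ1 (49.1). In treated WT it was HBA1 (6947), HBA2 (6477), HBZ (4040) and HBQ1 (51.2). The treated WT mean of HBZ rests on replicate 1, at 10004 CPM per kb, against 1664 and 453 in replicates 2 and 3. For HBA1 these values were 13291, 5158 and 2392. In untreated KO the order was HBZ (602 CPM per kb), HBA1 (299), HBA2 (220) and HBQ1 (42.1), and in treated KO it was HBZ (966), HBA1 (624), HBA2 (495) and HBQ1 (39.4). Zeta therefore stood below each alpha gene in WT means and above each in KO means, and theta was last in every group. Libraries of HBA1, HBA2 and HBZ overlapped with those of their neighbours in the order in both WT groups and in untreated KO. In treated KO the 3 genes did not overlap, with HBZ at 660 to 1468, HBA1 at 610 to 641 and HBA2 at 472 to 507 CPM per kb.

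The balance of zeta to alpha was measured inside each library, where depth and scaling cancel. The ratio of HBZ counts to HBA1 plus HBA2 counts was 0.264, 0.315 and 0.208 in untreated WT and 0.507, 0.219 and 0.132 in treated WT. It was 1.69, 1.48 and 1.18 in untreated KO and 1.68, 0.894 and 0.799 in treated KO. All 6 KO libraries lay above all 6 WT libraries, and the highest WT ratio was that of treated replicate 1. HBZ accordingly made up 11.5% to 33.6% of the counts of the 4 genes in WT and 43.4% to 62.2% in KO. These are counts, and the HBZ transcript is longer than those of HBA1 and HBA2. Per kilobase of exon the ratio was 0.101 to 0.387 in WT and 0.610 to 1.29 in KO. It was above 1 in untreated KO replicates 1 (1.29) and 2 (1.13) and treated KO replicate 1 (1.28) only.

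Genotype went with a 4.91-fold higher zeta to alpha ratio in KO (2.30 on the log2 scale, pooled SD within groups 0.60). The two-sided exact permutation test with genotype exchanged within each treatment gave p = 0.005, the smallest it can give with 400 arrangements (0.015 adjusted over the 12 ratio tests made). The ratio was higher in KO in 6 of 6 same-number pairs, by 3.31-fold to 6.43-fold (exact sign-flip p = 0.03125, the smallest possible). Within untreated cells the ratio was 5.55-fold higher and within treated cells 4.34-fold higher, each with an exact permutation p of 0.1, the smallest that 3 against 3 allows (adjusted 0.153).

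For butyrate the difference in this ratio did not pass the test. Over both genotypes the difference was -0.26 on the log2 scale (exact permutation p = 0.475, adjusted 0.518), with 5 of 6 same-number pairs lower and 1 higher. It was -0.08 in WT (exact permutation p = 1) and -0.44 in KO (exact permutation p = 0.3, adjusted 0.36). The exception among the pairs was WT replicate 1, where the ratio went from 0.264 to 0.507. In the other WT pairs alpha rose by more than zeta, from 0.315 to 0.219 and from 0.208 to 0.132. Without treated WT replicate 1 the WT difference was -0.61 and without treated replicate 3 it was 0.37.

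**Figure D3:**
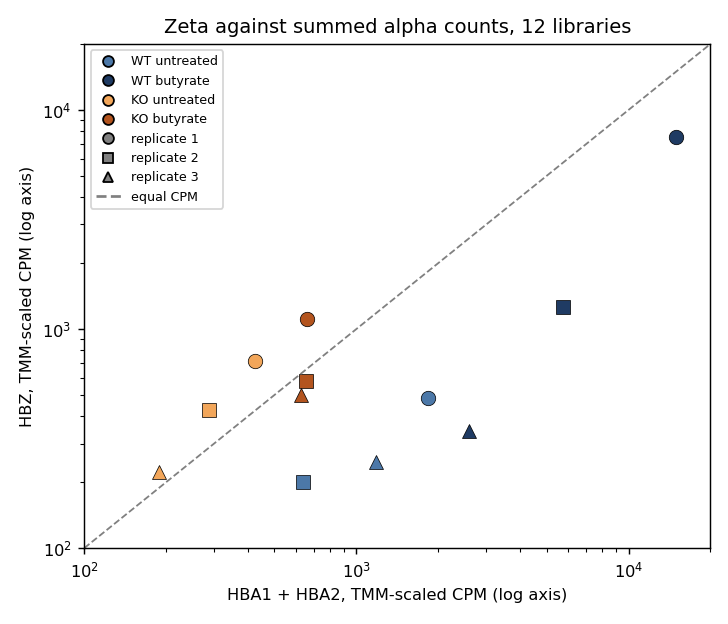
HBZ against HBA1 plus HBA2 in 12 libraries, both in TMM-scaled CPM on log axes, with color for the group, symbol for the replicate number and a dashed line at equal CPM. The 6 WT libraries lie below the line at ratios of 0.132 to 0.507, 4 of 6 KO libraries lie above it, and all KO libraries, at 0.799 to 1.69, are nearer to it or beyond it. The CPM shown are not divided by transcript length.

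The share of the alpha copies was also read, a measure added after the values were seen and uncertain because reads of the copies can be shared. The ratio of HBA2 to HBA1 counts was 0.871, 0.855 and 0.845 in untreated WT and 0.942, 0.926 and 0.878 in treated WT. It was 0.745, 0.727 and 0.726 in untreated KO and 0.786, 0.815 and 0.774 in treated KO. The 4 groups did not overlap, and all ratios were under 1. The ratio was 0.860-fold in KO relative to WT (exact permutation p = 0.005, adjusted 0.015, lower in 6 of 6 pairs) and 1.07-fold after butyrate (exact permutation p = 0.005, adjusted 0.015, higher in 6 of 6 pairs). The order of this ratio over groups was also the order of the alpha level, and whether the counting of shared reads plays a part was not tested.

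Alpha-cluster counts were next set against the beta-cluster globins HBE1 (epsilon, embryonic), HBG1 and HBG2 (gamma, fetal), HBD (delta) and HBB (adult beta). The ratio of the summed counts of the alpha cluster to those of the beta cluster was 0.147, 0.124 and 0.0958 in untreated WT and 0.418, 0.211 and 0.117 in treated WT. It was 0.422, 0.480 and 0.229 in untreated KO and 0.474, 0.532 and 0.382 in treated KO. In a measure added after the values were seen, the ratio was 2.50-fold higher in KO (exact permutation p = 0.01, adjusted 0.024, higher in 6 of 6 pairs), and untreated genotypes did not overlap while treated ones did. After butyrate it was 1.52-fold higher (exact permutation p = 0.105, adjusted 0.153). It was higher in 6 of 6 pairs, by 1.11-fold to 2.84-fold (exact sign-flip p = 0.03125, the smallest possible, not adjusted). Without the libraries numbered 1 the mean ratio was 0.110 untreated and 0.164 treated in WT, and 0.354 and 0.457 in KO.

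**Figure D4:**
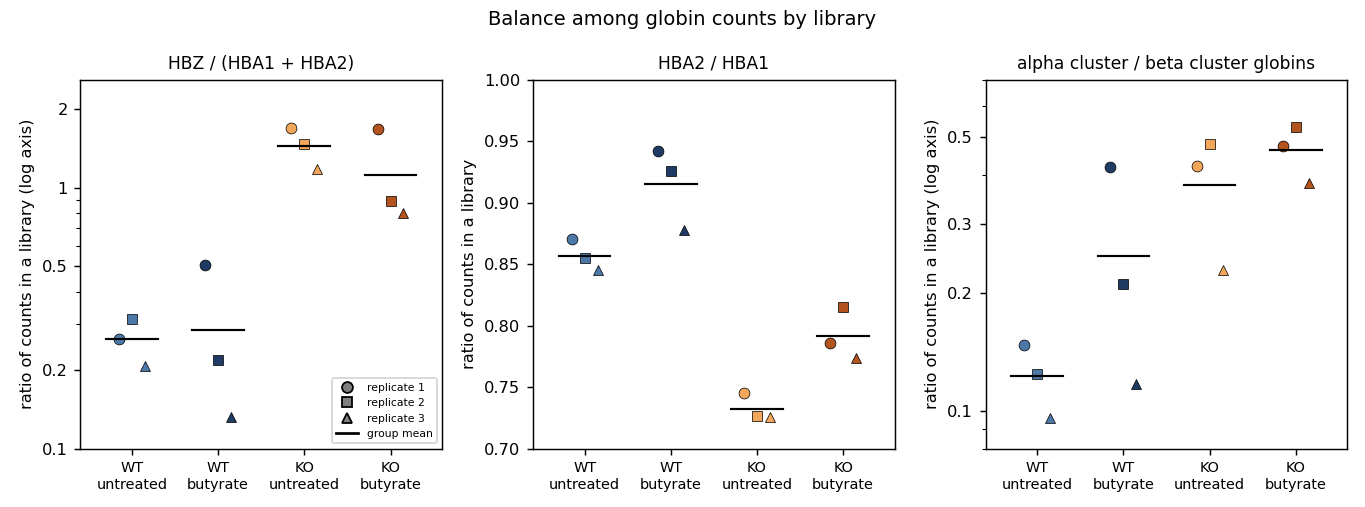
Ratios of globin counts within each library, with 3 libraries per group (symbol gives the replicate number) and the group mean as a bar, on log axes at left and right and a linear axis from 0.70 to 1.00 in the middle. KO lies above WT for zeta to alpha and below WT for HBA2 to HBA1, and treated WT spans 0.117 to 0.418 for the alpha to beta cluster ratio.

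Of the beta-cluster genes 4 of 5 were tested, HBB having at most 44 counts in a library. After butyrate 1 of these 4 rose in WT, HBD by 2.08 (edgeR adjusted p 0.0361), and 1 in KO, HBE1 by 3.83 (adjusted p 0.00995). The shares of all tested genes that passed were 2.35% and 3.40%. With the replicate block all 4 rose in WT and 1 in KO, where 8.61% and 11.7% of all genes passed. In KO against WT 3 of the 4, HBE1, HBG1 and HBG2, fell in both the untreated and the treated comparison, where 22.6% and 19.0% of all tested genes passed. HBE1 fell by 7.99 in untreated KO (edgeR adjusted p 1.65e-05) and by 6.02 in treated KO (adjusted p 9.88e-05). HBE1 held 48985 to 152315 counts in untreated WT and 220 to 491 in untreated KO, with no overlap. The ratio of HBZ to HBE1 counts was 0.0332 to 0.326 in WT and 2.62 to 30.3 in KO. This ratio, too, was added after the values were seen. It was 113-fold higher in KO as a mean over both treatments (exact permutation p = 0.005, adjusted 0.015). All 6 pairs were higher, by 8.11-fold to 630-fold. Geometric means were 0.0714 in WT and 27.0 in KO untreated, and 0.0992 and 3.35 treated. As HBE1 is its denominator, the ratio is not independent of the fall of HBE1.

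AHSP, the chaperone of free alpha chains, was near the detection limit of 3 counts in some libraries, at 0.0854 to 1.84 CPM, and passed in no comparison. EIF2AK1, the heme-regulated kinase that restrains globin translation when heme is scarce, fell by 0.72 in untreated KO (SE 0.16, edgeR adjusted p 0.00623) and by 1.00 in treated KO (SE 0.16, adjusted p 0.00103). Butyrate did not change it past the threshold in WT (0.13, edgeR adjusted p 0.723) or in KO (-0.14, adjusted p 0.673).

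Of 20 globin regulators 19 were tested, BCL11A being the exception. After butyrate 1 of the 19 rose and 0 fell in WT, where 2.35% of all tested genes passed, and 1 rose and 0 fell in KO, where 3.40% passed. In each case it was ZFPM1 (FOG1, the partner of GATA1), by 1.38 in WT (edgeR adjusted p 0.0393) and 1.49 in KO (adjusted p 0.0262). With the replicate block 2 rose (ZFPM1 and RUNX1) and 1 fell (LIN28B) after butyrate in WT, where 8.61% of all genes passed. In KO 1 rose (ZFPM1) and 1 fell (LIN28B) with the block, where 11.7% passed. LIN28B fell by 1.81 in WT and by 1.44 in KO there (edgeR adjusted p 0.0040 and 0.00922). In untreated KO 1 rose (ATRX) and 4 fell (LDB1, NFE2, MAFK and SOX6), and in treated KO 2 rose (ATRX and LIN28B) and 4 fell (LDB1, MAFK, ZBTB7A and SOX6). The shares of all tested genes that passed were 22.6% and 19.0%, so the count of regulators, 5 of 19 untreated and 6 of 19 treated, does not set the list apart. With the replicate block 4 rose and 7 fell in untreated KO, where 33.0% of all genes passed, and 3 rose and 6 fell in treated KO, where 29.2% passed.

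ATRX, a chromatin remodeller whose loss lowers alpha-globin expression in humans, rose by 1.35 in untreated KO (SE 0.21, edgeR adjusted p 0.000668) and by 1.33 in treated KO (SE 0.21, adjusted p 0.000997). LDB1, a scaffold for enhancer contacts of globin genes, fell by 0.89 in untreated KO (edgeR adjusted p 0.00404) and by 0.69 in treated KO (adjusted p 0.0199). SOX6, a repressor of embryonic epsilon globin, held 107 to 177 counts in untreated WT and 0 to 16 in untreated KO. NFE2 fell by 1.14 in untreated KO (edgeR adjusted p 0.0125), and MAFK, which forms a DNA-binding dimer with the NFE2 protein, fell by 0.91 (adjusted p 0.0132). The erythroid factors GATA1 (-0.77, edgeR adjusted p 0.0880) and KLF1 (-1.07, adjusted p 0.228) did not pass in untreated KO, nor in treated KO (-0.77, adjusted p 0.1005, and -0.62, adjusted p 0.527). With the replicate block GATA1 passed in both (edgeR adjusted p 0.0199 and 0.0274) and KLF1 in untreated KO (adjusted p 0.0449).

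Genes flanking the cluster were read as a local comparison. Of 11 neighbours within 200 kb of the HBZ start 10 were tested, RGS11 being the exception, and 0 rose and 0 fell in each of the 4 comparisons. After butyrate, where 2.35% and 3.40% of all tested genes passed in WT and KO, a count of 0 among 10 genes does not set them apart, and in KO against WT 22.6% and 19.0% passed. At an unadjusted p under 0.05 in edgeR there was 1 after butyrate in WT and 1 in KO, RHBDF1 in each. There were 2 in untreated KO, RHBDF1 and AXIN1, and 1 in treated KO, AXIN1. Of all 15805 tested genes 2849, 3122, 5475 and 4993 were under it in the same order. DESeq2 called 0, 1 (RHBDF1), 2 (RHBDF1 and AXIN1) and 1 (AXIN1) of the neighbours. Of all tested genes it called 931 higher and 400 lower after butyrate in WT, and 1158 and 380 in KO. For KO against WT these were 2224 and 2280 untreated, and 2078 and 1905 treated. The counts therefore do not set the neighbours apart. The median log2 change of the neighbours was 0.08 and 0.09 after butyrate in WT and KO. It was 0.12 and -0.05 in KO against WT, untreated and treated. With the replicate block RHBDF1, a rhomboid family gene, passed in each, rising by 1.79 and 2.30 after butyrate in WT and KO and falling by 2.01 and 1.498 in untreated and treated KO (edgeR adjusted p 0.00564, 0.00161, 0.000604 and 0.00319). NPRL3, which holds the enhancers, was at 86.6 to 112 CPM in untreated WT, 95.4 to 281 in treated WT, 102 to 134 in untreated KO and 110 to 203 in treated KO. The groups overlapped in all 4 comparisons, and NPRL3 passed in none.

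**Figure D5:**
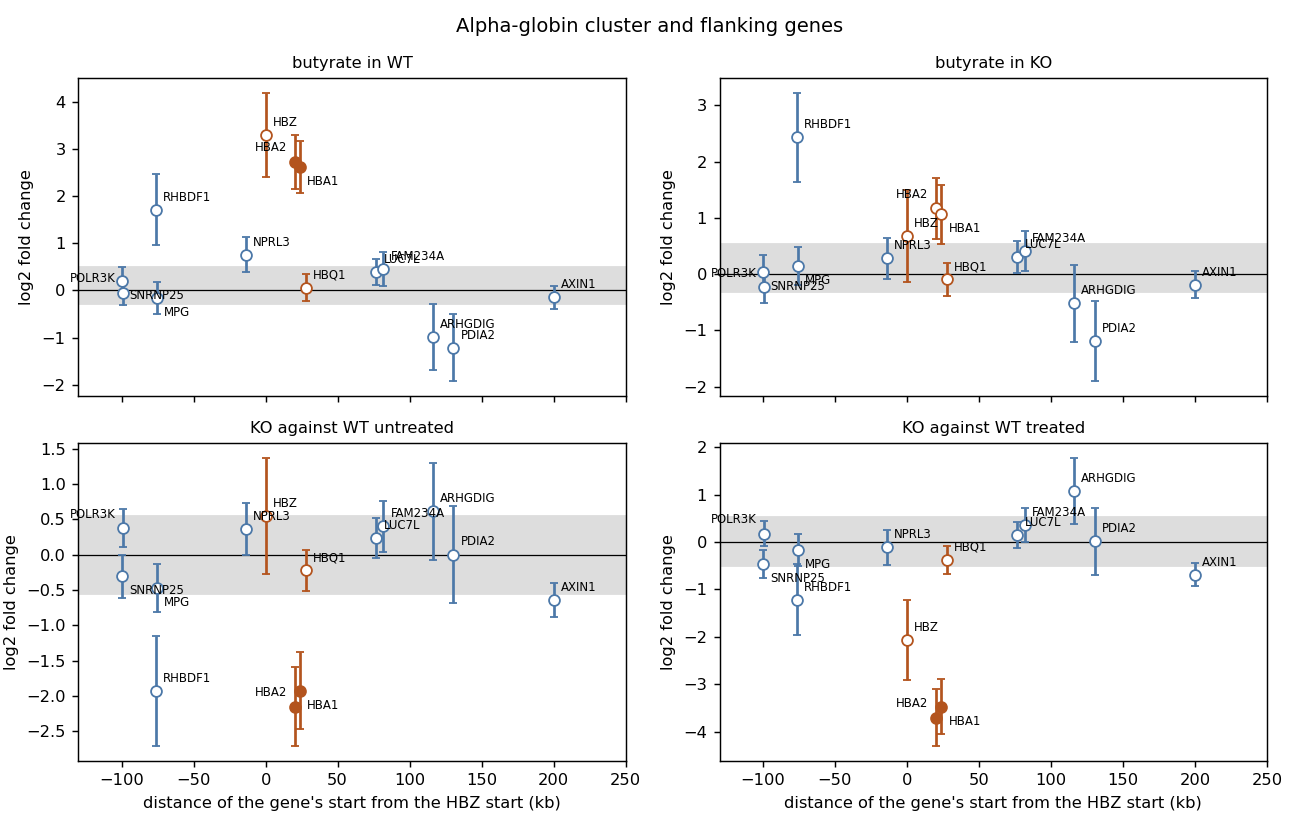
Log2 fold change of the alpha-globin cluster genes (orange) and their neighbours (blue) by distance of each gene's start from the HBZ start in kb, in 4 comparisons, with bars of 1 SE, filled where the edgeR adjusted p was under 0.05, the grey band marking the 25th to 75th percentile of all tested genes, and y axes that differ between panels. Filled points are those of HBA1 and HBA2 in 3 of the panels, and butyrate in KO has none.

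The libraries of a group differed by replicate number. The library numbered 1 was the highest of its group for HBZ in all 4 groups, at 2.16, 9.45, 2.21 and 2.05 times the mean of the other libraries in untreated WT, treated WT, untreated KO and treated KO. For the alpha sum the same multiples were 2.01, 3.58, 1.78 and 1.04, and for HBQ1 they were 1.24, 0.852, 0.957 and 0.471. The share of RNA28SN5 counts was 2.32 to 4.84 times that of the other libraries in these libraries, and its part in the globin values was not tested. Without the libraries numbered 1 HBZ passed after butyrate in WT (1.82, edgeR adjusted p 0.0457).

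As a description over 12 libraries, which share groups and library preparation, log2 CPM of HBZ correlated with that of the alpha sum at r = 0.70 and with that of HBQ1 at r = -0.12. HBA1 and HBA2 correlated at r = 1.00. Among 12471 genes with a mean of at least 50 counts, the 5 most like HBZ were PIGQ (r = 0.96), UCP2 (0.94), NDUFB9 (0.91), LAMTOR1 (0.90) and ZNF335 (0.90). Each of these 5, like HBZ, was highest in the library numbered 1 of every group, so likeness to HBZ cannot be told apart from replicate number. PIGQ lies on the same chromosome, 414 kb from the HBZ start, at 566995 to 584136, and the positions of the others were not looked up. Without treated WT replicates 1 and 2, the libraries farthest from the median, r with HBZ was 0.88 for PIGQ and 0.93 for UCP2. That check keeps the libraries numbered 1 of the other groups. The neighbour NPRL3 ranked 9th for HBZ (r = 0.88, and 0.90 without treated WT replicates 1 and 2). It ranked 3211th for the alpha sum (r = 0.36, and -0.26 without the same replicates). The 5 most like the alpha sum were FAM89B (r = 0.97), H2AX (0.95), JUND (0.95), HBG2 (0.95) and CKMT1A (0.95).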

How the data were processed

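The authors deposited raw counts by gene symbol in 1 table of 12 libraries, and 0 columns were left unused. STAR 2.7.11b, FastQC 0.12.1 and hg38 are named per the submitters' processing notes; the counting tool, annotation and strand use are not given in the sources used here. Groups and replicate numbers came from the titles. Counts were analysed in R 4.3.3 with edgeR 4.0.16: filterByExpr with a minimum count of 10, TMM scaling, 1 mean per group over all libraries (biological coefficient of variation 0.384), quasi-likelihood F-tests, and Benjamini-Hochberg adjustment over 15805 genes at 0.05. The fit was also tested on simulated data. HBA1 and HBA2 were refitted as a sum. Ratios were compared by two-sided exact permutation tests. DESeq2 1.42.0, other scalings, filters and samples served as alternatives. Intervals and the limit of 3 counts, 0.0953 to 0.162 CPM, cover counting error or library spread only.

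Libraries of the same number deviated together (correlations of deviations from group means of 0.195 to 0.409, 0.147 to 0.468, 0.210 to 0.361 and 0.315 to 0.595 in the comparisons of butyrate in WT, butyrate in KO, untreated genotypes and treated genotypes; the highest between different numbers was 0.186, 0.123, 0.0692 and 0.343, so the ranges overlapped for treated genotypes). Every same-number correlation was over 0.1, so the numbers were taken as pairs in a second fit. Replicates of a group differed beyond counting error (chi-square over degrees of freedom of at least 31.6). Positions, gene lengths and shared windows are from GENCODE v29 on GRCh38. The genes named are the 4 cluster genes, SLC48A1, the genes of lists of neighbours, beta-cluster globins, regulators and cell markers, and the 5 genes most correlated with HBZ and with the alpha sum (log2 CPM, prior count 2). These members and lists were chosen with earlier results of these data known.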

Additional observations from a re-analysis of the deposited data

How the results depend on the processing

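For the counts of genes called, the alpha sum and the zeta to alpha balance, 173 alternative values kept direction and side of the threshold (counts: within 1.5 times), 34 counts moved, 8 values no longer passed, 1 newly passed and 2 reversed. The cause was not tested, except that some settings test fewer genes or libraries. Genes called after butyrate in WT were 372, and 63 with only the groups compared, 1361 with the replicate block, 1331 with DESeq2 and 1884 without the libraries numbered 1. In KO they were 537, and 304 when every library had to hold at least 10 counts, 1852 with the block, 1538 with DESeq2 and 2164 without the libraries numbered 1. KO against WT gave 3574 untreated and 2334 with at least 10 counts, and 3009 treated, 1947 with at least 10 counts, 1802 with only the groups compared and 4612 with the block. The interaction gave 0, and 2 without a filter, 1 with at least 10 counts, 3 with the block, 86 with DESeq2 and 9 without the libraries numbered 1. The alpha sum after butyrate in WT was 2.68 with only the groups compared and no longer passed, and in KO 1.41 without the libraries numbered 1, where it passed. HBZ after butyrate in WT also passed without a filter (edgeR adjusted p 0.0357) and with DESeq2 (0.00728). HBQ1 after butyrate in KO turned to 0.0445 with library size alone and 0.14 without the libraries numbered 1; library size alone moved the median of all genes there to 0.12. Leaving out 1 library gave 43 to 1243 genes after butyrate in WT, 48 to 833 in KO, 2485 to 2844 and 2014 to 3477 for KO against WT untreated and treated, and 0 to 2 for the interaction. It gave 1.76 to 3.08 for the alpha sum after butyrate in WT, -2.35 to -1.60 for it in untreated KO, and -0.61 to 0.37 for the WT zeta to alpha difference. HBQ1 ranged from -0.0735 to 0.17 after butyrate in WT, -0.29 to 0.18 in KO and -0.35 to 0.12 for the interaction. The block changed no call on the 4 cluster genes other than those of HBZ in WT and HBA2 in KO. Simulated data had 3 libraries a group, 1 common spread for all 15805 genes (biological coefficient of variation 0.384) and no effect of replicate number. In them 2-fold changes were recovered in 8% of genes and 4-fold changes in 64% for butyrate in WT. In treated WT the coefficient of variation was 129% for HBZ, 82.6% for the alpha sum and 15.1% for HBQ1. The simulated shares therefore do not give the recovery for the cluster genes.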

Other observations

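HBM, which encodes mu globin and lies at 153892 to 166768 on chromosome 16 in the annotation used, overlapping the end of HBZ, was too low to be tested. It held 233 counts in treated WT replicate 1 and 0 to 5 counts in the other 11 libraries, being at 0 in 7 of them. The library with 233 counts is also the one with the highest HBZ level, at 7553 CPM. HBM and HBZ share no window of 50 bases in their transcripts. Both genes are on the plus strand, and how reads in their overlap were counted is not given in the sources used here.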
